A study of Mus musculus with 8 samples.

Results

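The genes described here encode proteins that splice messenger RNA: the SR proteins, the hnRNP proteins, the proteins of the small nuclear ribonucleoproteins (snRNPs), the SF3 and U2AF factors that recognise the end of an intron, and the Prpf proteins. Members were all array probes whose gene name began with Srsf, Sfrs, Hnrnp, Sf3a, Sf3b, U2af, Snrp or Prpf, with Snrpn left out. The rule used names and no measured value. It found 113 of 39429 probes, which stand for 65 of 30175 gene names.

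Expression was measured on 8 one-colour arrays of mouse E14 embryonic stem cells (ESCs), grown without feeder cells and infected with a lentivirus carrying a short hairpin RNA for 72 hours. The 4 groups of 2 biological replicates, A and B, were control KD (a hairpin against GFP), Tip60 KD, Hdac6 KD and double KD, in which Tip60 and Hdac6 were depleted together (KD, knockdown). Tip60 is an acetyltransferase encoded by Kat5, the catalytic subunit of the Tip60-p400 chromatin complex, and Hdac6 is a deacetylase. Each gene was depleted with 1 hairpin, so the effect of a target cannot be told apart from that of its hairpin, and all groups, the control included, had been infected. The study asked whether Hdac6 is needed for gene regulation by Tip60-p400.

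Splicing removes introns in a large particle, the spliceosome, that assembles anew on each intron. The U1 snRNP binds the start of the intron, U2AF and the U2 snRNP with SF3A and SF3B mark its end and branch site, and the U4, U5 and U6 snRNPs join before the Prp19 complex helps to activate the particle. SR proteins mostly favour and hnRNP proteins often oppose the use of an exon, and both kinds of protein regulate their own transcripts by alternative splicing. ESCs are known for splicing programs that differ from those of differentiated cells.

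Signals are given as log2 of the processed signal over the 75th percentile of the same array, so that 0 is the brightness of that percentile, and a change is a difference between group means on this scale. A gene was called higher or lower at a limma adjusted p under 0.1 over all 17977 genes tested. Kat5 fell by 1.37 in Tip60 KD and by 1.31 in double KD, to 38.7% and 40.2% of control KD. Hdac6 fell by 2.50 and 1.88 in Hdac6 KD and double KD, to 17.7% and 27.2%, and by 0.45 in Tip60 KD. All 10 ESC markers were measured and their summed level lay between 8.25 and 8.44 on the 8 arrays. Of 10 fibroblast markers 6 passed the filter, with a summed level of 1.32 to 1.87. The summed level ran from 1.89 to 2.38 for the 3 of 6 primitive endoderm markers that passed, from -1.81 to -0.79 for the only trophoblast marker of 5 (Eomes) and from 0.83 to 2.06 for 4 of 6 mesoderm and neural markers, whose part in the results was not tested. Well-above-background spots numbered 21896 to 40609 of 43020 per array. Control KD had the fewest on each replicate letter, 31179 on A and 21896 on B. The depleted arrays had 39622 to 40609 on A and 27056 to 40276 on B. The median background subtracted was also highest in control KD, 61 on A and 114.3 on B, against 37.2 to 39.4 and 41.4 to 89. Signal quality thus differed with group, and its part in the results was not tested. Where a transcript carried probes at least 200 bases apart, the 3′-most probe read a lower change than the 5′-most one for 74.3% of 2224 genes with Tip60 KD, 66.3% with Hdac6 KD and 64.9% with double KD, with median differences of -0.29, -0.14 and -0.11. The part of that difference in the results was not tested.

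All 65 member genes passed the filter on low values, and the chosen probe was well above background on all 8 arrays for 64 of them. The exception was Srsf2, whose spot on Hdac6 KD array A carried an outlier mark and was left out. One other spot stood apart. Srsf7 lay between 4.35 and 4.79 on 7 arrays and at the floor of -2.78 on Tip60 KD array A, with no mark on the spot. Its change in Tip60 KD was therefore -3.51 ± 2.15 (SE, n = 2 against 2), not called, and became 0.15 with that spot left out, a choice made after seeing the data. The inflated error of this probe also enters its other comparisons, so that no call was possible for it. A dimmer Srsf7 probe further along the transcript read 1.79 and 1.79 without depletion, 1.14 and 1.14 after Tip60 KD, 1.56 and 1.64 after Hdac6 KD and 1.13 and 1.1 after double KD. That probe was lower in Tip60 KD (-0.65 ± 0.07) and in double KD (-0.68 ± 0.07), fitted probe by probe.

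In Tip60 KD, 34 of the 65 members were called, 19 higher and 15 lower. Among all genes 40.4% were called, 19.1% higher and 21.3% lower. The median change of the members was 0.06, against 0.05 over all genes. The share of members called higher, 29.2%, lay above the share of all genes, and the share called lower, 23.1%, lay near it. The count fell to 20 without control KD array A and to 21 without Tip60 KD array A. With the replicate letter as a block it was 46 (27 higher, 19 lower), against 60.4% of all genes, 31.6% higher and 28.7% lower. A change later given as called with the block was not called without it. The split between directions depended on the scaling, and was 23 higher and 9 lower after quantile normalisation and 23 higher and 7 lower on the series matrix values. For other scalings and for arrays left out, the share of all genes was not counted, here or below. By themselves such counts therefore cannot tell a shift of the members from a shift of all genes. The medians were taken for both sets. In Tip60 KD the member median was 0.13 after quantile normalisation, against 0.04 over all genes. It was 0.13 against 0.03 on the series matrix values and 0.08 against 0.04 after normexp background correction. Without control KD array A it was 0.11 against 0, and without control KD array B 0.01 against 0.07.

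In Hdac6 KD, 22 members were called, 16 higher and 6 lower. Among all genes 30.0% were called, 14.0% higher and 16.0% lower. The median change of the members was 0.15, against 0.02 over all genes. Leaving out control KD array A gave 14, control KD array B 12, Hdac6 KD array A 12 and Hdac6 KD array B 10. With the replicate block the count was 40 (27 higher, 13 lower), against 52.9% of all genes, 26.9% higher and 25.9% lower. Quantile normalisation gave 19 higher and 2 lower, normexp background correction 17 and 1, and the series matrix values 16 and 2.

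In double KD, 27 members were called, 20 higher and 7 lower, where 33.7% of all genes were called, 16.0% higher and 17.7% lower. The median change was 0.08, against 0.05 over all genes. Leaving out control KD array A gave 15, control KD array B 17 and double KD array A 16. Quantile normalisation gave 24 higher and 3 lower, normexp background correction 20 and 3, and the series matrix values 22 and 2. Of the member calls, 16 of 34 with Tip60 KD, 11 of 22 with Hdac6 KD and 12 of 27 with double KD held without each of the 8 arrays in turn. With every probe fitted on its own, 58, 38 and 46 of 105 member probes were called, against 41.3%, 30.8% and 34.6% of all probes. The 3 knockdowns share the control KD arrays, so their values are given side by side and not as independent evidence.

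**Figure D1:**
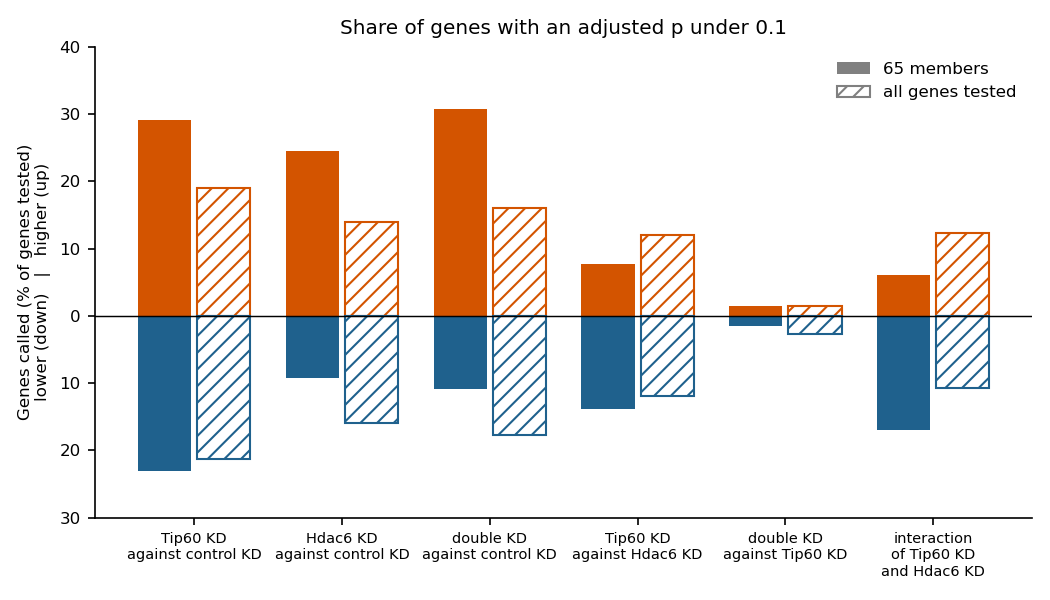
Share of genes with an adjusted p under 0.1 in each of 6 comparisons, in percent of genes tested, higher above the axis and lower below it. Filled bars are the 65 members and hatched bars all 17977 genes. In Hdac6 KD 24.6% of members were higher and 9.23% lower, against 14.0% and 16.0% of all genes.

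Of the 12 SR and SR-related genes, 5 were higher and 3 lower in Tip60 KD, 4 called in Hdac6 KD, each of them higher, and 5 higher and 1 lower in double KD. Their median changes were 0.12, 0.22 and 0.20. SR proteins carry an RNA recognition motif and a tail rich in arginine and serine, and bind exonic enhancers. Srsf6 changed most among the SR genes called. It gave 2.37 and 2.28 on the pair of control KD arrays, 3.55 and 3.33 on those of Tip60 KD, 3.56 and 3.45 on those of Hdac6 KD and 3.40 and 3.20 on those of double KD. Every depleted array lay above both control arrays. The changes were 1.11 ± 0.12, 1.17 ± 0.12 and 0.97 ± 0.12 (SE, limma adjusted p = 0.00177, 0.00321 and 0.00398), or 2.16-, 2.25- and 1.97-fold.

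The second Srsf6 probe did not show this. It read 2.68 and 2.43 on the control KD arrays, 2.45 and 2.52 with Tip60 KD, 2.46 and 2.43 with Hdac6 KD and 2.45 and 2.50 with double KD, with changes of -0.07, -0.11 and -0.08 (SE 0.10 each, none called). On this probe the groups overlapped. Both probes lie on the same RefSeq transcript, at base 1235 and base 3179. The first 30 of the 60 bases of each are shown to mark where the differing values were read.
Srsf6, base 1235, chr2:162760546-162760605 (mm9, plus strand): taggcagttactcttccgagtttatactcg
Srsf6, base 3179, chr2:162762490-162762549 (mm9, plus strand): gcagaagtgactgacttaaagtgttttagt

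Srsf2, the SR protein also known as SC35, read 2.77 and 2.72 on the control KD arrays, 3.52 and 3.47 with Tip60 KD, 3.51 on the only usable Hdac6 KD array, and 3.18 and 3.26 with double KD. The changes were 0.75 ± 0.08, 0.76 ± 0.10 and 0.47 ± 0.08 (adjusted p = 0.00309, 0.00918 and 0.0154), with the lone Hdac6 KD array assumed to vary like the other groups. The double KD arrays lay between control KD and the single knockdowns. Its second probe gave 0.82, 0.60 and 0.44, all called when probes were fitted one by one. Srsf3, the smallest SR protein, rose by 0.65, 0.64 and 0.36 (SE 0.11 each, the last lost without either control KD or either double KD array, adjusted p up to 0.241), and its other probes on the same transcript were higher by 0.35, 0.46 and 0.34 at base 274 and by 0.32 (called with the block), 0.83 and 0.50 at base 2460.

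Srsf5 rose by 0.46, 0.67 and 0.58 (SE 0.08 each), from 3.37 and 3.48 in control KD to 4.05 and 4.13 in Hdac6 KD. Srsf10, which represses splicing when it loses its phosphates, was higher in Tip60 KD (0.52 ± 0.19) and in double KD (0.57 ± 0.19), and its change of 0.37 ± 0.19 in Hdac6 KD passed with the replicate block. Each of its calls was lost without any one of 5 arrays, both control KD arrays among them (adjusted p up to 0.331 and 0.278). A Srsf10 probe further along the same transcript, at base 2896, gave smaller changes of 0.01, 0.27 and 0.16. Averaged over its probes, the gene also lost its double KD call.

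The SR-related genes called lower were Sfrs18, Srsf4 and Srsf12 in Tip60 KD and Sfrs18 in double KD. Sfrs18, now named Pnisr, read 0.74 and 0.59 without depletion, 0.10 and -0.20 after Tip60 KD, 0.75 and 0.66 after Hdac6 KD and 0.33 and 0.18 after double KD. It was lower in Tip60 KD (-0.71 ± 0.13, adjusted p = 0.00954) and in double KD (-0.41 ± 0.13, lost without 6 of the arrays left out in turn, adjusted p up to 0.267), and its change in Hdac6 KD was 0.04 ± 0.13. The Tip60 KD arrays were also lower than the Hdac6 KD arrays when tested directly (-0.76, adjusted p = 0.0152). A second Sfrs18 probe on another transcript gave 0.32, 0.37 and 0.27, called higher with the block. Averaged over both probes, the gene was not called in Tip60 KD or double KD, while the difference between Tip60 KD and Hdac6 KD was still called. Srsf4 (-0.49 ± 0.12) and the dim Srsf12 (-0.54 ± 0.17) were lower in Tip60 KD. Srsf4 was not called without control KD A or without Tip60 KD B (adjusted p up to 0.114), nor Srsf12 without either Tip60 KD array (up to 0.18). Srsf1, Srsf9 and Srsf11 were not called in any of the 3 knockdowns, with changes between -0.05 and 0.18, but with the block Srsf1 was higher in Hdac6 KD and Srsf11 in Tip60 KD.

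**Figure D2:**
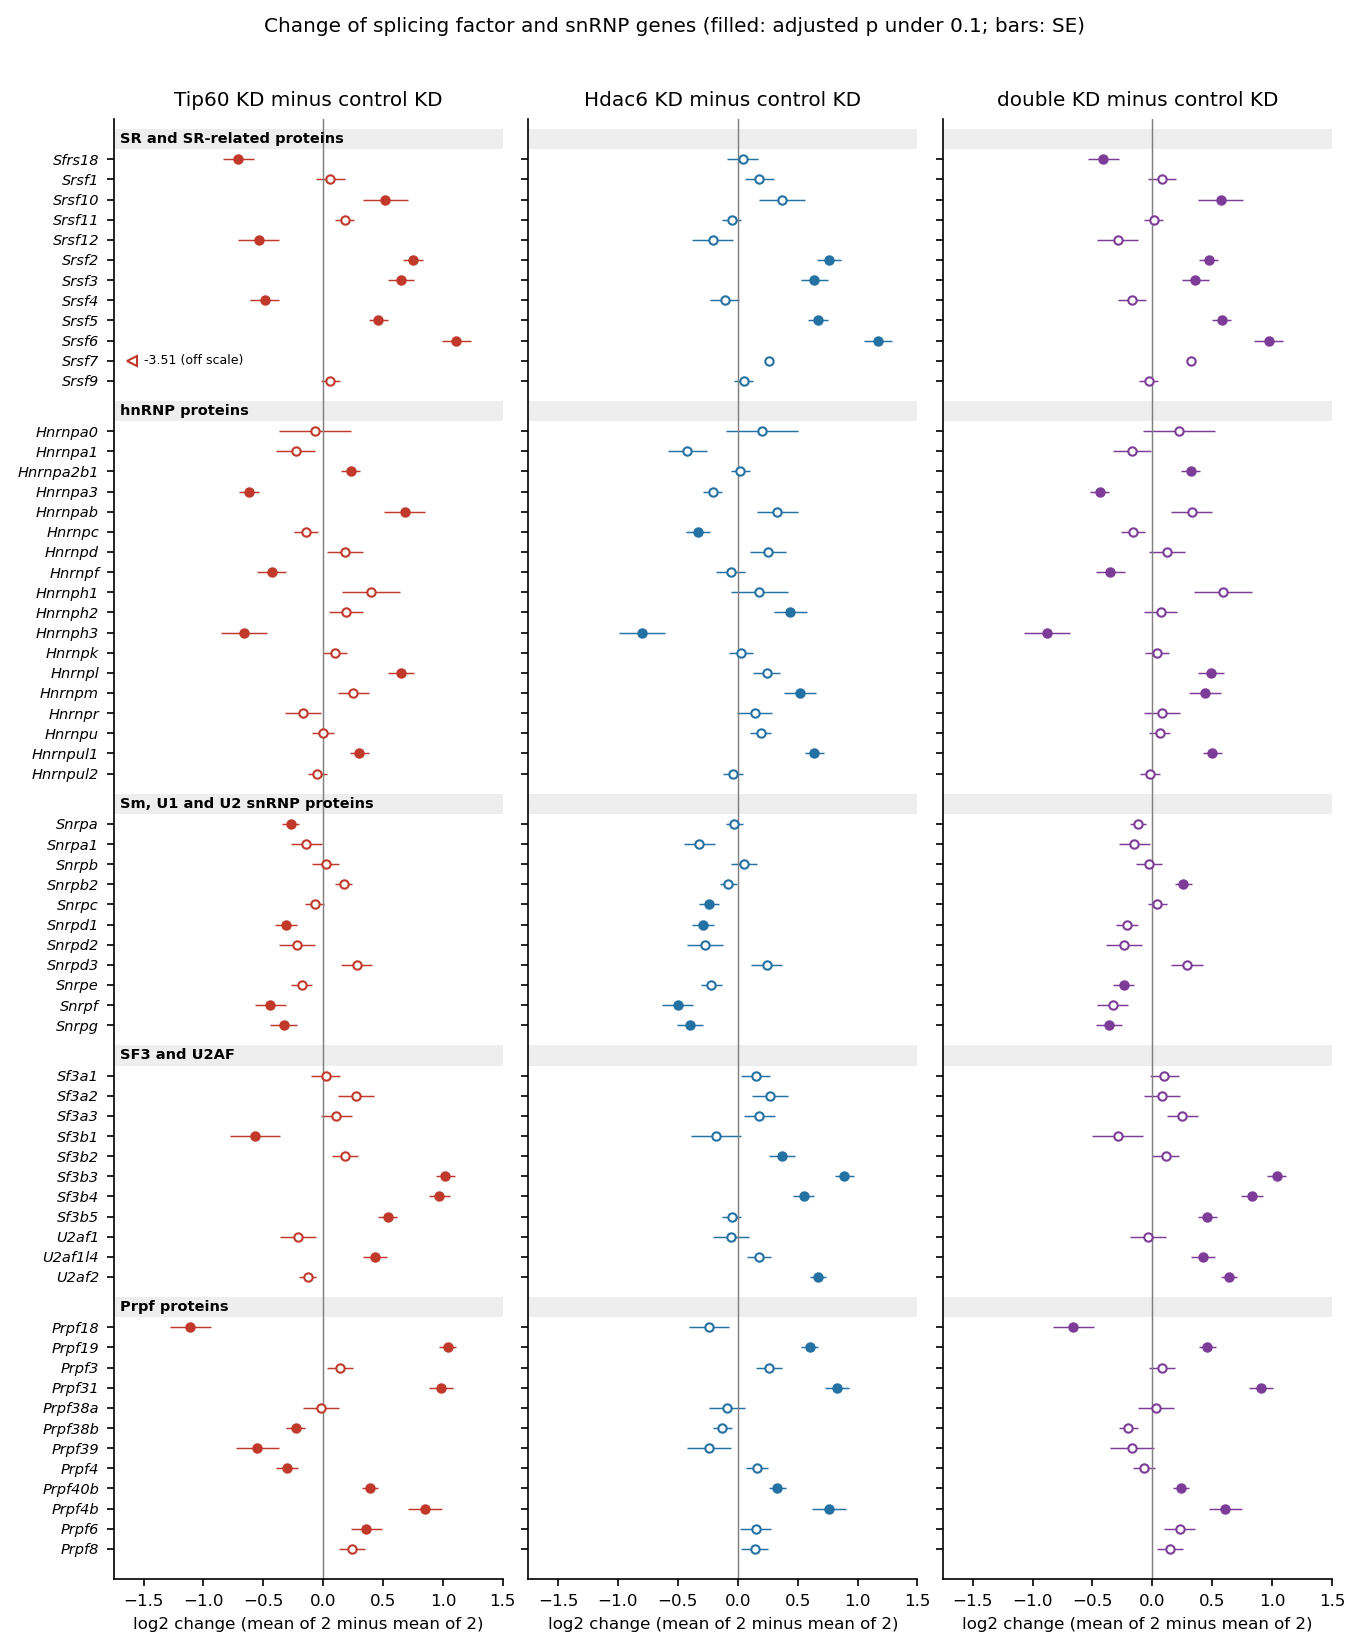
Log2 change from control KD to each of the 3 knockdowns for the member genes, by family, with 1 gene not drawn. Points are differences between means of 2 arrays, bars are standard errors and filled points have an adjusted p under 0.1. Srsf7 lies off the scale at -3.51 in Tip60 KD, and its error of 2.15 is not drawn. Srsf6, Sf3b3 and Prpf31 lie near 1 in each panel, and most Sm genes lie below 0.

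Of 18 hnRNP genes, 7 were called in Tip60 KD (4 higher, 3 lower), 5 in Hdac6 KD (3 higher, 2 lower) and 7 in double KD (4 higher, 3 lower), with median changes of 0.05, 0.16 and 0.08. HnRNP proteins coat nascent transcripts and steer splice site choice, export and stability. Hnrnpl, which binds CA-rich RNA, read 0.80 and 0.89 in control KD and 1.44 and 1.55 in Tip60 KD. It was higher in Tip60 KD by 0.65 ± 0.11 (adjusted p = 0.00842). In double KD it was higher by 0.49 ± 0.11 (adjusted p = 0.0279), where the call was lost without control KD A or double KD B (highest adjusted p 0.126). Its change in Hdac6 KD was 0.24 ± 0.11, called with the block, and Tip60 KD exceeded Hdac6 KD by 0.40 (adjusted p = 0.0645).

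Hnrnpul1, an hnRNP U-like protein linked to RNA processing and DNA repair, moved more in Hdac6 KD. It gave -0.45 and -0.51 on the pair of control KD arrays, -0.18 and -0.18 on those of Tip60 KD, 0.07 and 0.24 on those of Hdac6 KD and 0.00 and 0.04 on those of double KD. The changes were 0.30, 0.64 and 0.50 (SE 0.08 each), and Tip60 KD lay below Hdac6 KD (difference -0.34, adjusted p = 0.0459). The call in Tip60 KD was lost without any one of its 4 arrays (adjusted p up to 0.152). Hnrnpm was higher in Hdac6 KD (0.52 ± 0.13) and in double KD (0.44 ± 0.13). Hnrnph2 was higher in Hdac6 KD (0.44 ± 0.14, against 0.19 ± 0.14 in Tip60 KD, a difference called with the block). Hnrnpab was higher in Tip60 KD (0.68 ± 0.17), with 0.33 and 0.33 in Hdac6 KD and double KD, called with the block. Its dimmer probe at base 2318 gave another order, 0.23 (not called), 0.63 and 0.72 (both called), with Tip60 KD below Hdac6 KD (difference -0.40, adjusted p = 0.0784). The 4 calls of Hnrnpm, Hnrnph2 and Hnrnpab at the brighter probes were each lost without 1 or more arrays, with adjusted p up to 0.17, 0.225, 0.277 and 0.12.

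Hnrnpa3, a relative of Hnrnpa1 and Hnrnpa2b1, fell. It read 5.93 and 5.86 on the control KD arrays, 5.34 and 5.21 with Tip60 KD, 5.66 and 5.71 with Hdac6 KD and 5.40 and 5.50 with double KD, and every depleted array lay below both control arrays. The changes were -0.62 ± 0.08 (adjusted p = 0.00359), -0.21 ± 0.08 (not called, lower with the block) and -0.44 ± 0.08 (adjusted p = 0.0145). The double KD call was lost after quantile normalisation and on the series matrix values. Tip60 KD lay below Hdac6 KD (difference -0.41, adjusted p = 0.0255). Hnrnpa2b1, in contrast, was higher in Tip60 KD (0.23 ± 0.08) and double KD (0.32 ± 0.08), with 0.02 ± 0.08 after Hdac6 depletion. Neither call held without each array (adjusted p up to 0.261 and 0.146). A much dimmer Hnrnpa2b1 probe, at base 1587 of the same transcript, gave larger changes of 0.55, 0.51 and 0.74 (SE 0.42 each). None of these was called, and each was higher with the block.

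Hnrnpa3 was read by 7 tested probes, and 5 of them lie on 1 transcript. From base 1438 to base 2451 the changes in Tip60 KD ran from -0.62 to -0.39. The probe at base 5126 fell from 1.25 and 1.11 without depletion to -0.54 and -0.75 after Tip60 KD, 0.03 and -0.14 after Hdac6 KD and -0.38 and -0.53 after double KD. Its changes were -1.82 ± 0.12, -1.24 ± 0.12 and -1.63 ± 0.12, all called. A probe of a second transcript, with bases on both sides of a splice junction, was higher in Hdac6 KD (0.43 ± 0.14) and not called in Tip60 KD (0.06) or double KD (-0.05). The other probe of that transcript, at base 858, also crosses a junction, with 60 bases over a span of 705. It was lower in Tip60 KD (-0.53 ± 0.08) and double KD (-0.48 ± 0.08), with -0.07 in Hdac6 KD. The starts of the probes at bases 644, 1438 and 5126 are shown because they gave different answers for the same gene.
Hnrnpa3, base 644 of the second transcript, chr2:75500576-75500719 (mm9, plus strand, 60 bases over a span of 144): tgtgaagtgaaaaaggccctttctaaacaa
Hnrnpa3, base 1438, chr2:75503679-75503738 (mm9, plus strand): agtgtcaattagatgtacattcctgaggtc
Hnrnpa3, base 5126, chr2:75507367-75507426 (mm9, plus strand): gacagcagaggtggtctgtaattcaattgt

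Hnrnpf was the other gene whose probes were called in opposite directions. In Tip60 KD the brighter probe fell by 0.43 and a probe near the start of another transcript rose by 0.30. Among genes with 2 or more called probes, 1 of 13 had such opposite calls in Tip60 KD (Hnrnpf) and 1 of 9 in Hdac6 KD (Hnrnpa3). The call of Hnrnpf in Tip60 KD was lost without any one of its 4 arrays (adjusted p up to 0.149), and its double KD call (-0.35 ± 0.12) without any one of 7 of the 8 arrays (up to 0.281). Hnrnph3 was lower, with changes of -0.66, -0.80 and -0.88 (SE 0.19 each), at values of -2.54 to -1.52, close to the floor, and each of these calls was lost without 1 or more arrays (adjusted p up to 0.184, 0.153 and 0.114). Hnrnpc was lower in Hdac6 KD (-0.33 ± 0.10) and not called without either control KD or either Hdac6 KD array (up to 0.22). Hnrnpk, Hnrnpu and Hnrnpul2 gave changes of at most 0.19 in any knockdown, of which that of Hnrnpu in Hdac6 KD was called with the block, and Hnrnpul2 stayed between 1.15 and 1.29 on all arrays.

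**Figure D3:**
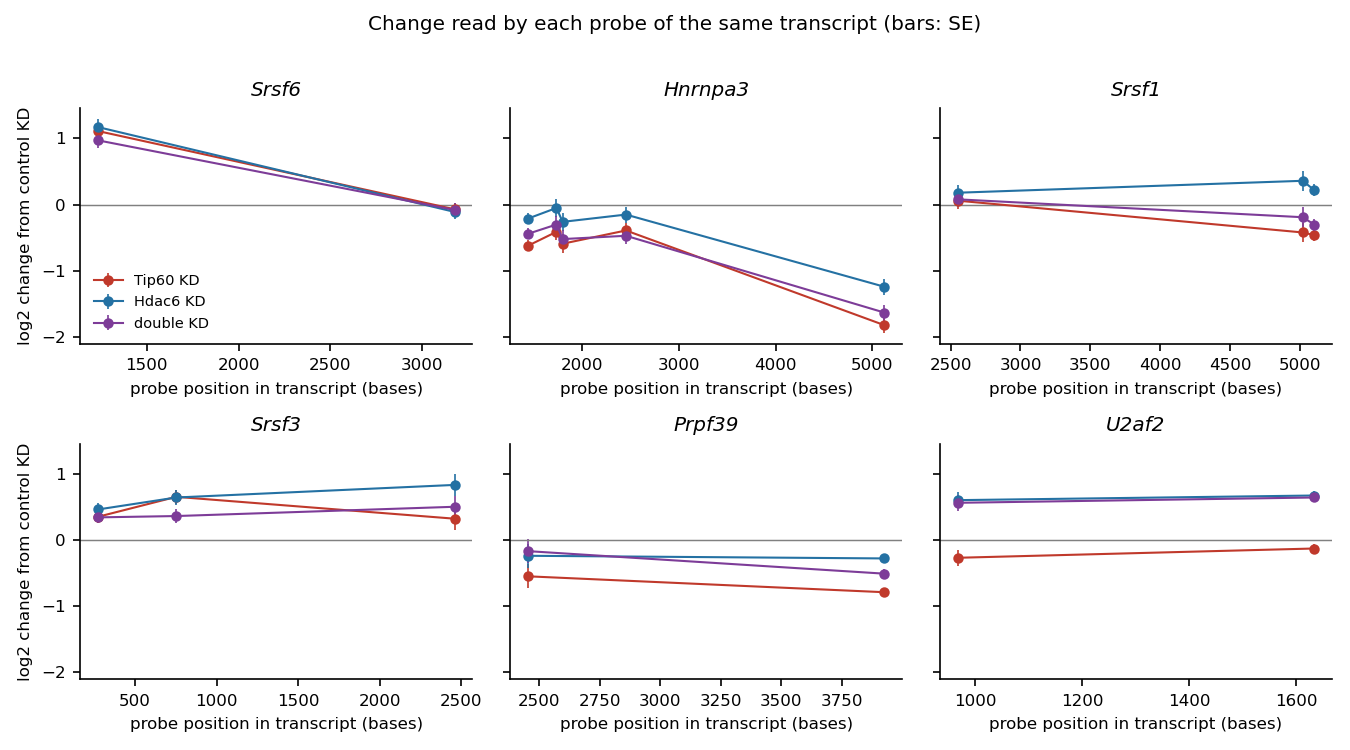
Log2 change from control KD against the position of each probe on 1 RefSeq transcript, for 6 member genes, with standard errors. For Srsf6 and Hnrnpa3 the probe farthest along the transcript read a lower change (-0.07 and -1.82 in Tip60 KD) than the first (1.11 and -0.62), while the U2af2 probes kept the same order of the 3 knockdowns.

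The proteins of the Sm ring, which closes around the U1, U2, U4 and U5 RNAs, gave calls that were all lower in this fit. Of 7 Sm genes, 3 were lower in Tip60 KD and 3 in Hdac6 KD (Snrpf, Snrpg and Snrpd1 in each), and 2 in double KD (Snrpg and Snrpe). Their median changes were -0.22, -0.27 and -0.24. Snrpf read 3.82 and 3.82 without depletion, 3.29 and 3.47 after Tip60 KD, 3.44 and 3.20 after Hdac6 KD and 3.61 and 3.37 after double KD. All depleted arrays lay below control KD. The changes were -0.44 ± 0.13 (adjusted p = 0.0464), -0.50 ± 0.13 (adjusted p = 0.0427) and -0.33 ± 0.13, the last called with the block.

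Snrpg fell by 0.33, 0.40 and 0.36 (SE 0.11 each) and Snrpd1 by 0.31 and 0.29 in the single knockdowns (SE 0.09 each), with -0.21 in double KD. Snrpe was lower in double KD (-0.24 ± 0.09). The second Snrpd1 probe, 222 bases further along, fell by 0.78, 0.55 and 0.47, while the Snrpg probe 205 bases nearer the start of the transcript gave -0.10, -0.09 and 0.01, not called. Snrpd3 gave 0.28, 0.24 and 0.29, not called here and higher with the block, and Snrpb stayed within 0.05 of control KD. Snrpd2 gave -0.22, -0.27 and -0.24, lower with the block. In all, the block gave 5 of the 7 Sm genes lower and 1 higher in each knockdown. As a mean of the probes of a gene, 4, 3 and 1 were called lower and 0 higher.

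These falls were small and depended on the scaling. The Sm median was -0.10, -0.14 and -0.07 after quantile normalisation, -0.10, -0.15 and -0.09 after normexp background correction, and -0.01, -0.05 and 0.03 on the series matrix values, where the double KD median changed sign and limma called 0, 1 and 0 of the 7 genes lower (1, 1 and 0 at an unadjusted p under 0.05). One Sm gene was called higher in each knockdown after quantile normalisation, beside 1 lower in each single knockdown, and 1 was called higher in double KD on the series matrix values. Within slide A the medians were -0.33, -0.35 and -0.27, and within slide B -0.11, -0.13 and -0.12. Every Sm call was also lost without control KD array A, with adjusted p up to 0.33 over the arrays left out in turn.

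The U1 and U2 snRNP proteins outside the ring were mixed. Snrpa, the A protein of the U1 snRNP, was lower in Tip60 KD (-0.27 ± 0.07) and lay below Hdac6 KD there (difference -0.24, adjusted p = 0.0801). Snrpc, the C protein of the U1 snRNP, was lower in Hdac6 KD (-0.24 ± 0.08). The call of Snrpa was lost without control KD B or Tip60 KD A (up to 0.142), and that of Snrpc without any one of the 8 arrays (up to 0.341). Snrpb2, a U2 protein, was higher in double KD (0.26 ± 0.07) and higher in Tip60 KD than in Hdac6 KD (0.24, adjusted p = 0.0636). Its double KD call was lost without either control KD array or without double KD A (adjusted p up to 0.143).

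Of the 11 SF3 and U2AF genes, 4 were higher and 1 lower in Tip60 KD, 4 were higher in Hdac6 KD and 5 in double KD. The SF3B complex grips the branch site within the U2 snRNP. Sf3b3, its large scaffold, gave 3.12 and 3.11 on the pair of control KD arrays, 4.16 and 4.12 on those of Tip60 KD, 4.01 and 4.01 on those of Hdac6 KD and 4.24 and 4.06 on those of double KD. Every depleted array lay above both control arrays. The changes were 1.02, 0.89 and 1.04 (SE 0.08 each, adjusted p = 0.00106, 0.00292 and 0.00173). A dimmer Sf3b3 probe gave 0.68, 0.54 and 0.75, all called.

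Sf3b4 rose by 0.97, 0.55 and 0.83 (SE 0.09 each), and the Tip60 KD arrays (2.51 and 2.35) lay above the Hdac6 KD arrays (2.04 and 1.97) by 0.42 (adjusted p = 0.0275), a difference lost without Tip60 KD A or either Hdac6 KD array (up to 0.136). Sf3b5, the smallest subunit, separated the knockdowns further. It read 2.51 and 2.41 on the control KD arrays, 2.98 and 3.02 with Tip60 KD, 2.36 and 2.45 with Hdac6 KD and 2.91 and 2.92 with double KD. Tip60 KD exceeded Hdac6 KD by 0.59 ± 0.08 (adjusted p = 0.00757), and Hdac6 KD differed from control KD by -0.05 ± 0.08. Sf3b2 was higher in Hdac6 KD (0.37 ± 0.11), lost without 6 of the arrays left out in turn (up to 0.259). Sf3b1, the subunit that contacts the branch site, was lower in Tip60 KD (-0.57 ± 0.21), a call lost without any one of 7 of the 8 arrays (highest adjusted p 0.342). The 3 SF3A genes were not called in any knockdown, with changes between 0.02 and 0.27, but with the block Sf3a3 was higher in Hdac6 KD and double KD and Sf3a1 in Hdac6 KD.

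U2af2, the large U2AF subunit that binds the polypyrimidine tract, read -0.89 and -0.83 without depletion, -0.99 and -1.0 after Tip60 KD, -0.16 and -0.22 after Hdac6 KD and -0.23 and -0.22 after double KD. The Hdac6 KD and double KD arrays lay together, above control KD and Tip60 KD. The changes were -0.13 ± 0.07 (not called), 0.67 ± 0.07 (adjusted p = 0.00345) and 0.64 ± 0.07 (adjusted p = 0.00319). Tip60 KD lay below Hdac6 KD (difference -0.80, adjusted p = 0.00312), and double KD above Tip60 KD by 0.77 (adjusted p = 0.0353). The second U2af2 probe, at base 968 of the same transcript, gave -0.27 ± 0.12, 0.60 ± 0.12 and 0.56 ± 0.12. The starts of both probes are shown because they gave the same order.
U2af2, base 968, chr7:5026338-5026396 (mm9, plus strand): ttaaaagagctgctgacatcctttgggcct
U2af2, base 1633, chr7:5030991-5031050 (mm9, plus strand): cctcttgaagaagatgggcagaggagtgac

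U2af1, the small subunit that reads the last bases of the intron, was not called (-0.21, -0.06 and -0.04, SE 0.15 each), though lower in Tip60 KD with the block. Its relative U2af1l4 was higher in Tip60 KD (0.43 ± 0.10) and double KD (0.42 ± 0.10), lost without control KD A among others (adjusted p up to 0.107 and 0.134).

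Of the 13 Prpf genes, 10 were called in Tip60 KD (6 higher, 4 lower), 5 in Hdac6 KD, each of them higher, and 6 in double KD (5 higher, 1 lower), with median changes of 0.24, 0.16 and 0.15. Prpf31, which holds the U4, U5 and U6 snRNPs together, gave 1.47 and 1.37 on the pair of control KD arrays, 2.52 and 2.29 on those of Tip60 KD, 2.31 and 2.20 on those of Hdac6 KD and 2.35 and 2.31 on those of double KD. It rose by 0.98, 0.83 and 0.91 (SE 0.10 each, adjusted p = 0.00178, 0.00551 and 0.00353), or 1.98-, 1.78- and 1.88-fold.

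Prpf19, the ubiquitin ligase of the Prp19 complex, read 0.07 and 0.03 on the control KD arrays, 1.07 and 1.11 with Tip60 KD, 0.64 and 0.66 with Hdac6 KD and 0.51 and 0.51 with double KD, so no 2 groups overlapped. It rose by 1.04, 0.60 and 0.46 (SE 0.07 each). Tip60 KD exceeded Hdac6 KD by 0.45 (adjusted p = 0.0107), and double KD lay below Tip60 KD (difference -0.58, adjusted p = 0.0463). Prpf4b, a kinase of the spliceosome, rose by 0.85, 0.76 and 0.61 (SE 0.14 each), and its second probe by 0.83, 0.76 and 0.71. The double KD call of Prpf4b was lost without control KD B or double KD A (highest adjusted p 0.119).

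The U1-associated protein Prpf40b rose by 0.39 in Tip60 KD, by 0.33 with Hdac6 KD and by 0.24 with double KD. Its Hdac6 KD and double KD calls were lost without 1 or more arrays (adjusted p up to 0.118 and 0.207). Prpf39, another U1-associated protein, was lower in Tip60 KD (-0.55 ± 0.18), and its probe further along the transcript gave -0.79, -0.28 and -0.51, all called. The call at the brighter probe was lost without control KD A or either Tip60 KD array (up to 0.264). Prpf18, a factor of the second step of splicing, had the largest decrease among the members called in Tip60 KD. It read 1.64 and 1.43 without depletion, 0.48 and 0.37 after Tip60 KD, 1.44 and 1.16 after Hdac6 KD and 1.05 and 0.69 after double KD.

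The Prpf18 changes were -1.11 ± 0.17 (adjusted p = 0.00491), -0.24 ± 0.17 (called with the block) and -0.66 ± 0.17 (adjusted p = 0.0345). Tip60 KD lay below Hdac6 KD (difference -0.87, adjusted p = 0.0205), lost without Tip60 KD B or Hdac6 KD A (up to 0.111), and the double KD call was lost without control KD A or double KD B (up to 0.159). Prpf4, of the U4 and U6 snRNPs, fell by 0.30 in Tip60 KD, and its call was lost without control KD A or either Tip60 KD array (up to 0.191). Prpf8, the large protein at the centre of the spliceosome, gave 0.24, 0.14 and 0.15 (SE 0.11 each), of which the first was called with the block. Prpf3 and Prpf38a were not called either, and with the block Prpf3 was higher in Hdac6 KD.

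**Figure D4:**
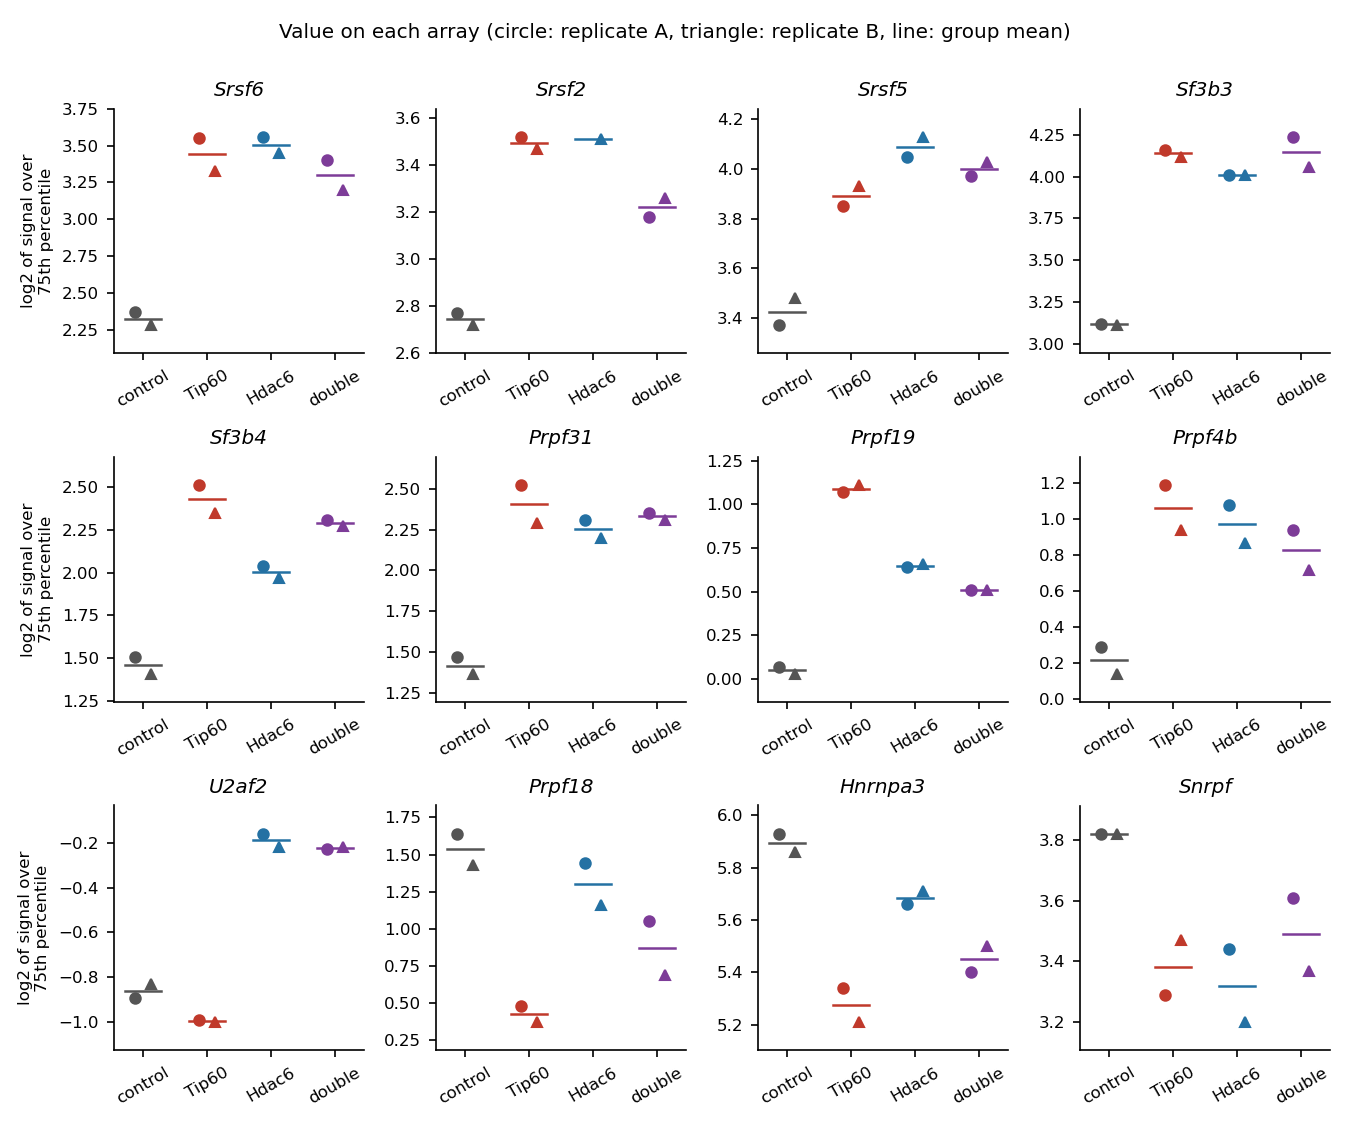
Log2 value over the 75th percentile on each of the 8 arrays for 12 member genes, by group, with a circle for replicate A, a triangle for replicate B and a line for the group mean. Each panel has its own vertical axis. U2af2 is high in Hdac6 KD and double KD, near -0.2, and low in control KD and Tip60 KD, and Prpf19 takes 4 separate levels.

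Between the 2 single knockdowns, 14 members differed, 5 higher and 9 lower in Tip60 KD, where 24.0% of all genes differed, 12.1% higher and 11.9% lower. The count was 9 without Tip60 KD array A, 7 without Tip60 KD array B, 5 without either Hdac6 KD array and 29 with the block, against 41.5% of all genes. The largest positive differences were those of Sf3b5, Prpf19 and Sf3b4 and the largest negative ones those of Prpf18, U2af2 and Sfrs18, all given above. Between double KD and Tip60 KD, 2 members differed, U2af2 higher and Prpf19 lower in double KD, where 4.07% of all genes did, 1.45% higher and 2.62% lower. This count was 0 or 1 without each array in turn, 0 with only the 4 arrays compared in the limma fit (4 at an unadjusted p under 0.05), and 12 with the block, against 26.6% of all genes. The highest adjusted p without 1 array was 0.237 for U2af2 and 0.25 for Prpf19.

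The interaction term subtracts both single knockdown changes from that of double KD, and is 0 where the effects add on the log2 scale. It was called for 15 members, 4 positive and 11 negative, where 23.1% of all genes were called, 12.4% positive and 10.7% negative. With the block the count was 34 (14 positive, 20 negative), against 47.0% of all genes, 23.8% positive and 23.3% negative, and without Hdac6 KD array B it was 7. The largest negative terms among those called were those of Srsf6 (-1.31 ± 0.16, adjusted p = 0.0101), Prpf19 (-1.18 ± 0.09, adjusted p = 0.0068) and Srsf2 (-1.04 ± 0.13, adjusted p = 0.0137), genes whose double KD change did not exceed the larger single change. The Srsf2 term rests on 1 Hdac6 KD array, and the second Srsf6 probe gave a term of 0.10 ± 0.14. The largest positive terms among those called were those of Snrpf (0.61 ± 0.18), Snrpd1 (0.39 ± 0.12) and Hnrnpa3 (0.38 ± 0.12), which fell in Tip60 KD. Prpf18 (0.68) and Prpf39 (0.62) had larger positive terms that were called with the block. The calls of Snrpf, Snrpd1 and Hnrnpa3 were lost without any one of several arrays, with adjusted p up to 0.21, 0.213 and 0.204. The control KD mean enters the interaction and the 3 changes with opposite signs, so the term is not independent of them.

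Other splicing genes were taken from a list of 136 names, of which 127 were tested: further spliceosome proteins, kinases and regulators of splicing, and the machinery that assembles snRNPs. In Tip60 KD 64 were called (35 higher, 29 lower), in Hdac6 KD 50 (34 higher, 16 lower) and in double KD 53 (32 higher, 21 lower), which is 50.4%, 39.4% and 41.7% of the list, against 40.4%, 30.0% and 33.7% of all genes. The median changes were 0.05, 0.03 and 0.04. The count in Hdac6 KD was 21 without control KD A, 24 without control KD B, 20 without Hdac6 KD A, 21 without Hdac6 KD B and 78 with the block, and that in double KD was 28 without control KD A, 30 without control KD B and 31 without double KD A.

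Dhx38, the helicase Prp16 of the second step, gave -0.97 and -1.02 on the pair of control KD arrays, 0.53 and 0.42 on those of Tip60 KD, -0.16 and -0.10 on those of Hdac6 KD and 0.05 and 0.09 on those of double KD, and rose by 1.47, 0.86 and 1.07 (SE 0.08 each). Prmt5, which methylates Sm proteins, rose by 1.05, 0.47 and 0.57, and Gemin7 and Gemin4, parts of the SMN complex that loads Sm rings, by 0.92, 0.40 and 0.73 and by 0.70, 0.81 and 0.81. The kinases of SR proteins Clk4 and Clk1 fell. Clk4 read 2.18 and 2.06 on the control KD arrays, 0.93 and 0.97 with Tip60 KD, 1.48 and 1.42 with Hdac6 KD and 1.27 and 1.22 with double KD, with changes of -1.17, -0.67 and -0.87, and Clk1 gave -0.54, -1.01 and -0.73, all called.

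Ptbp2 and Syncrip were lower in Tip60 KD (-0.96 and -0.90) and double KD (-0.59 and -0.61) and called in Hdac6 KD with the block (-0.15 and -0.20). Averaged over its probes, Syncrip gave 0.17 in Tip60 KD. Esrp2, an epithelial splicing regulator, was higher in Hdac6 KD by 1.26 at dim values, and by 0.70 and 0.78 in the other two. Srrm1 fell by 0.35, 0.61 and 0.41, Coil, the marker protein of Cajal bodies, by 0.82, 0.33 and 0.88, and Bcas2, of the Prp19 complex, by 0.70, 0.44 and 0.80. Dhx9 was higher in Hdac6 KD and double KD (0.76 and 0.82) at values near the floor. Son was higher by 0.86 ± 0.27 in double KD, lost without any one of control KD B, either Hdac6 KD array or either double KD array (adjusted p up to 0.225).

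Promoters of the members were read from RefSeq windows of 250 bases before to 50 bases after the start (GRCm38.p6), found by current symbol for 56 of the 65 genes. The motif CCGGAAGT, the core bound by Ets factors, lay on either strand in a window of 11 of the 56 genes (19.6%), against 4.31% of all 27025 genes. The E-box CACGTG lay in 9 (16.1%, against 8.09%), CCAAT in 29 (51.8%, against 41.1%) and the palindromic motif of Nrf1 in 1 (1.79%, against 1.07%). No motif contains another of them. The 27025 genes are all those with a RefSeq window, whether or not they passed the filter here, while all members passed it. Some genes had more than 1 window. Counted by window (74 of members, 32851 of all genes), the shares were 17.6% against 3.89% for CCGGAAGT and 14.9% against 7.15% for CACGTG. They were 50% against 37.4% for CCAAT and 1.35% against 0.971% for the Nrf1 motif. Of the 11 genes with CCGGAAGT, 3 were higher and 2 lower in Tip60 KD, 2 higher and 2 lower in double KD, and 3 were called in Hdac6 KD, each of them higher. Of the 9 with CACGTG, which Myc binds, 1 was higher and 4 lower in Tip60 KD, 2 higher and 2 lower in double KD, and 3 were called in Hdac6 KD, each of them higher. Myc itself rose by 3.14, 1.95 and 3.07, and its part in these changes was not tested. For scale, 19.1% of all genes were higher and 21.3% lower after Tip60 depletion. After double depletion the shares of all genes were 16.0% and 17.7%, and after depletion of Hdac6 alone 14.0% and 16.0%. Whether calls were more frequent with either motif than without it was not tested.

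A match is a description of the window and no sign of binding. For each motif 2 genes that moved are shown, with the motif in capitals: Srsf5 and Prpf4b with CCGGAAGT (Srsf5 holds 2 copies, of opposite strands), which rose, and Hnrnpa3, which fell in Tip60 KD, and Prpf40b, which rose, with CACGTG.
Srsf5, chr12:80945249-80945548 (GRCm38.p6, plus strand): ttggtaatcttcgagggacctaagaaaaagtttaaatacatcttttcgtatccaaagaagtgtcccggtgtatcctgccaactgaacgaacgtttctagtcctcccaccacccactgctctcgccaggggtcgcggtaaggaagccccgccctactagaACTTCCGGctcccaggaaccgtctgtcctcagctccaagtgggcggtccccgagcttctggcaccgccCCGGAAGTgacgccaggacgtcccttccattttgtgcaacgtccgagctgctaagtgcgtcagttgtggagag
Prpf4b, chr13:34875279-34875578 (GRCm38.p6, plus strand): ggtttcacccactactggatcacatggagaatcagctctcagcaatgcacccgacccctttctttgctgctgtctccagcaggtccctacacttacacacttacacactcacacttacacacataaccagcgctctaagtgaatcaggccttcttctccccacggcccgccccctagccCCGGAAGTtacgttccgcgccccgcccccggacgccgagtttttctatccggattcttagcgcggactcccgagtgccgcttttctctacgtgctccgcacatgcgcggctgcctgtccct
Hnrnpa3, chr2:75659009-75659308 (GRCm38.p6, plus strand): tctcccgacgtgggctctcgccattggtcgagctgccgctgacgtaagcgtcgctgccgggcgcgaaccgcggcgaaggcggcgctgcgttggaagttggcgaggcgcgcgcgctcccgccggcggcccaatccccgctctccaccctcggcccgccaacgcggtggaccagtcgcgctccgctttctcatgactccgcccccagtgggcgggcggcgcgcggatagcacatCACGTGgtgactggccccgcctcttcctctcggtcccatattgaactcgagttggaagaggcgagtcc
Prpf40b, chr15:99294991-99295290 (GRCm38.p6, plus strand): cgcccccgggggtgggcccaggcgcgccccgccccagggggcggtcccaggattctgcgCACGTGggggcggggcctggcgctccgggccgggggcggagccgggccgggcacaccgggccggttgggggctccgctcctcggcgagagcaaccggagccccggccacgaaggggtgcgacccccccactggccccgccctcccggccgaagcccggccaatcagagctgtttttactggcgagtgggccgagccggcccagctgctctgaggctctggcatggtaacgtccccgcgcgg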

How the data were processed

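The arrays were Agilent whole-genome mouse arrays of 1 colour, hybridised with Cy3-labelled cRNA made from total RNA, and quantified with Agilent Feature Extraction 10.7.1.1 per the labels. The deposited scanner values are fluorescence intensity, as raw spot signals and as a processed signal, corrected by the software for background and a spatial trend and not scaled from array to array. The series matrix, also deposited, holds log2 values that ranked probes as the median signal did (Spearman rho 1 on each array). It was used as an alternative. Its centring is not given in the sources used here, but its column medians were 8.19 or 8.2.

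Control and outlier-marked spots were left out, spots of a probe were averaged, and no spot was saturated. The processed signal was divided by the 75th percentile of its array, raised to a common floor (0.145 of that percentile, -2.78 on the log2 scale) and converted to log2. The floor is the highest, over arrays, of the lowest signal well above background. The filter asked for 2 or more arrays with the probe well above background and above the floor, which kept 22518 probes, 105 of the 113 member probes among them. The probe of highest mean stood for its gene (17977 genes), and 8.85% of their values lay at the floor. Probe positions are those of the files (mm9). Promoters came from RefSeq (GRCm38.p6).

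Differences were tested with limma 3.58.1 (lmFit, eBayes, R 4.3.3), 2-sided, with all 4 groups in one fit and Benjamini-Hochberg adjustment over all genes. All adjusted p-values come from limma, with 4 residual degrees of freedom and 1.81 from the prior. The number of arrays limits the precision. The steps were tested on simulated data. All 4 groups had 1 array on each slide, so replicate letter, slide and scan coincide, and group cannot be told apart from position on the slide. The A minus B differences of any pair of groups correlated (r 0.65 to 0.798 across genes), so the letters pair the arrays, and the letter was also fitted as a block. The alternatives were other scalings, floors, filters and probe rules, a threshold of 0.05, each slide alone and each array left out.

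The member genes and lists were chosen with earlier results of these data known. Named genes are, per family and knockdown, up to 3 called members with the largest increase and 3 with the largest decrease, up to 3 each way for the other comparisons, genes with opposite probes, and up to 3 other splicing genes each way. Members named beyond that rule, and the probes singled out, were chosen after their values were seen. One member gene is counted in all totals and its own values are not reported here. Srsf11 had no current symbol by accession and kept its array name.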

Additional observations from a re-analysis of the deposited data

Results flagged for a closer look

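The interaction term was called for 15 member genes (limma, adjusted p under 0.1). That is 23.1% of the members and the same share as among all genes (23.1%). Hdac6 itself fell by 2.50 in Hdac6 KD and by 1.43 from Tip60 KD to double KD. Its own interaction term was 1.07 (limma adjusted p = 0.00686). The part of this unequal depletion in the terms of the members was not tested. The terms of Srsf6 (-1.31), Prpf19 (-1.18) and Srsf2 (-1.04) were negative. The Srsf2 term rests on 1 Hdac6 KD array, so that no value was possible without it. The Srsf6 term was -0.61 over the mean of both probes, and 0.10 at the second probe. The terms of Snrpf (0.61), Snrpd1 (0.39) and Hnrnpa3 (0.38) were positive, and the calls of these 3 were lost in 10, 13 and 13 of the 20 alternatives, whereas those of Srsf6, Prpf19 and Srsf2 were kept in all alternatives with a test.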

How the results depend on the processing

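Of 176 counts recomputed under the alternatives, 125 stayed within 1.5 times the value given above. With the replicate block, members called numbered 40 in Hdac6 KD, 29 for Tip60 KD against Hdac6 KD, 34 for the interaction and 12 for double KD against Tip60 KD, and other splicing genes 78 in Hdac6 KD. All calls of named genes held with the block. With each probe fitted separately, 58, 38 and 46 of 105 member probes were called in the 3 knockdowns in the order Tip60, Hdac6 and double. Of 198 probes of other splicing genes, 105, 80 and 88 were called. The shares over all probes, in the same order, were 41.3%, 30.8% and 34.6%. The other 3 comparisons gave 28, 7 and 26 member probes, and there the share of all probes was not counted. With only the arrays compared in the fit, the members called were 16 in double KD, 8 for Tip60 KD against Hdac6 KD and 0 for double KD against Tip60 KD (limma, 4 at an unadjusted p under 0.05). The series matrix values gave 9 for Tip60 KD against Hdac6 KD and 1 for double KD against Tip60 KD, where normexp background correction also gave 1. At an adjusted p under 0.05 there were 9 for Tip60 KD against Hdac6 KD, and 32 other splicing genes in Hdac6 KD. Leaving out each array in turn gave 20 to 31 members in Tip60 KD, 10 to 23 in Hdac6 KD, 15 to 26 in double KD, 5 to 13 for Tip60 KD against Hdac6 KD, 0 to 1 for double KD against Tip60 KD and 7 to 14 for the interaction, and 45 to 63, 20 to 44 and 28 to 48 other splicing genes. The causes were not tested.

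Of 76 values of named members, 36 kept their direction and call under every alternative that gave a value, 40 lost the call under at least 1, and none changed direction. Of 18 values of other splicing genes, Syncrip in Tip60 KD changed direction as a mean of its probes (0.17), and Son in double KD lost its call. Srsf7 changed direction with its spot on Tip60 KD array A left out, an alternative added after seeing the data, from -3.51 to 0.15 in Tip60 KD and from 3.57 to -0.10 in the interaction, neither called. That alternative left all member counts within 1.5 times. Dim signal limits Hnrnph3, Srsf12, Sf3b1 and Dhx9, whose values lie near the floor.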

Other observations

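Some member genes not called at their brightest probe had another probe that was called when probes were fitted one by one. These probes were picked after their values were seen. A U2af1 probe near the start of a transcript, at base 98, read 1.97 and 1.94 in control KD and 2.70 and 2.55 in Tip60 KD, a change of 0.67 ± 0.12 (SE), with 0.18 in Hdac6 KD and 0.00 in double KD. The brightest U2af1 probe gave -0.21, -0.06 and -0.04. An Hnrnpa1 probe at base 577, in the gene of a protein that represses many exons, was higher in Tip60 KD by 0.47 ± 0.07, with -0.03 in Hdac6 KD and 0.03 in double KD, against -0.23, -0.42 and -0.17 at the brightest probe.

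For Srsf1, the first SR protein described, the probes at bases 5019 and 5101 fell by 0.42 and 0.46 in Tip60 KD, and gave 0.36 and 0.22 in Hdac6 KD, called with the block and not without it. The brightest probe, at base 2552 of the same transcript, gave 0.06 and 0.18. Over the 18 member genes with probes at least 200 bases apart on 1 transcript, the 3′-most probe read the lower change in 15 with Tip60 KD, 10 with Hdac6 KD and 9 with double KD, with median differences of -0.23, -0.03 and -0.12. These medians were -0.10, -0.06 and -0.04 within slide A and -0.37, -0.07 and -0.09 within slide B. All genes gave 74.3%, 66.3% and 64.9%. The Srsf7 spot at the floor is among these values in Tip60 KD.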
